A study of Mus musculus with 9 samples.

Results

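The stathmins and the doublecortin family are small groups of proteins that act on microtubules. The genes described here are Stmn1, Stmn2, Stmn3 and Stmn4, which encode the stathmins, and Dcx, Dclk1 and Dclk2, which encode doublecortin and the doublecortin-like kinases. Members were the probe sets annotated with 1 of these 7 symbols, and all 7 genes were measured, among 22180 genes with a probe set of 1 symbol. They were covered by 8 of the 41345 probe sets on the array. Stmn4 had 2 probe sets, and the one with the higher mean over the 9 arrays was taken as its main one.

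Stathmins bind soluble tubulin dimers, hold them away from polymerization and promote the shrinkage of microtubules. Phosphorylation releases the tubulin. Stmn2, Stmn3 and Stmn4 carry an extension that anchors them to membranes of the Golgi apparatus and to vesicles of the growth cone, whereas Stmn1 is cytosolic. Doublecortin binds along the microtubule lattice and stabilizes it, and it is widely used as a marker of newborn migrating neurons. The doublecortin-like kinases join doublecortin domains to a protein kinase domain.

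All samples were N1E-115 cells, a mouse neuroblastoma line, that had received 80 nM siRNA, been starved of serum overnight and been replated on laminin, where they extend neurites. The groups were an siRNA pool against Hmgn5, a nucleosome-binding chromatin protein, at 24 h, a control siRNA at 24 h and the control siRNA at 4 h, with 3 arrays each. RNA came from whole cells, so fewer cells of a type and less RNA per cell cannot be told apart. Whether replicates were separate cultures is not in the labels, and the tests then cover only the spread among these arrays, possibly technical.

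In the time comparison, Stmn4 on its main probe set was higher and Dcx lower at 24 h than at 4 h, each by about 1 log2 unit. The second Stmn4 probe set was higher by 0.23, which did not pass the test. The other 5 genes did not pass either. No member passed in the siRNA comparison. Values are log2 expression as the authors deposited them, differences are in log2 units, and a gene was called at a limma adjusted p under 0.05 over all 22180 genes.

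Several measurements bear on how the values read. Hmgn5 had 3.53, 3.45 and 3.50 on the knockdown arrays, against 4.77, 4.66 and 4.69 on the 24 h control arrays, a difference of -1.21 (SE 0.09, adjusted p = 0.00367). That call was lost without control 24 h replicate 1 (adjusted p = 0.0558) or without Hmgn5 siRNA replicate 2 (0.0552) or 3 (0.0506), with differences from -1.22 to -1.18. Hmgn5 was itself among the dimmest 33% of genes. How far its low signal affects the size of the Hmgn5 difference was not tested. One array was unlike the others: limma gave control 4 h replicate 2 a weight of 0.198, against 0.789 to 1.74 elsewhere, so differences of the members over time are also given without it, except for the second Stmn4 probe set and the within-array differences from the rest of a family. Of 15 sympathetic neuroblastoma markers 13 were measured, and 12 of these, all but Ddc, lay above the median gene. None of 6 measured glial or 6 leukocyte markers lay above the median gene, and 1 of 8 fibroblast and 1 of 5 endothelial markers did. The mean over the sympathetic markers was 9.99 to 10.04 on the knockdown arrays, 10.02 to 10.05 on the 24 h control arrays and 9.73 to 9.91 on the 4 h control arrays.

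**Figure D1:**
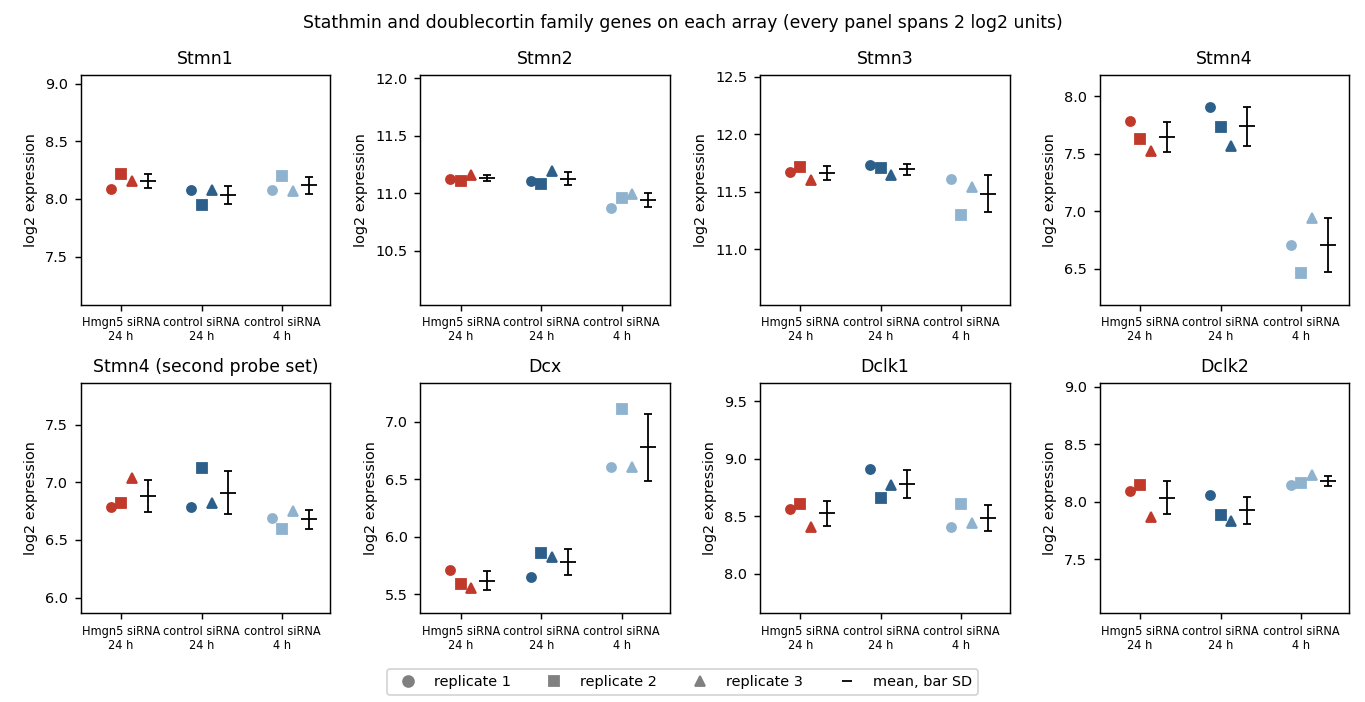
Log2 expression of the 8 probe sets on each of the 9 arrays, by group, with the mean and SD of each group as a black bar. Every panel spans the same number of log2 units but is centred on its own values, so heights do not compare between panels. The 4 h arrays of Stmn4 (6.47 to 6.94) lie below all 24 h arrays of its main probe set, and the 4 h arrays of Dcx (6.61 to 7.11) lie above all 24 h arrays.

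Dcx is the called gene whose start is listed in the RefSeq promoter table, and its window is printed to show the sequence before the start of the gene that fell. It is the 250 bases before the start of the upstream Dcx entry, on the minus strand of GRCm38.p6 at chrX:143933220-143933469, read 5′ to 3′. Capitals mark, in order, a CCAAT box, a TATAAA motif and a homeodomain core motif spelled TAATTA.
Dcx: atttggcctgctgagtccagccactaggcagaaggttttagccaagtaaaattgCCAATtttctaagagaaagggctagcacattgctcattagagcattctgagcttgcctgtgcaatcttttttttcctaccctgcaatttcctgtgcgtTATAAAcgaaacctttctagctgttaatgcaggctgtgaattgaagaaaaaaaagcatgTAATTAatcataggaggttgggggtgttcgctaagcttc

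The motifs were searched on both strands, and none of the marked matches overlap. The TATAAA match began 98 bases before the start, TAATTA, the core recognized by many homeodomain proteins, 39 bases before it, and CCAAT 196 bases before it. Of 32851 such windows in the table, with 1 chromosome left out, 12.4% held TATAAA, 4.84% held TAATTA and 33.8% held CCAAT. The E-box, CANNTG, had no match in this Dcx window and was found in 66.2% of the same windows. A second Dcx entry, whose window overlaps the printed one, held TATAAA 193 and TAATTA 134 bases before its start and had no CCAAT match. Windows were also listed for Stmn3, Dclk1 and Dclk2, none of which held TATAAA or the homeodomain core. A CCAAT box was held by 1 of the 2 Dclk1 windows. These matches describe the letters only. No window was listed for Stmn1, Stmn2 or Stmn4.

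Time on laminin was compared in the control siRNA cells. Of the 7 genes 1 was called higher and 1 lower at 24 h, where 2.17% of all genes were called higher and 2.17% lower (481 and 482 genes, or 477 and 309 with each array centred on its median). The groups did not overlap for 6 of the 7, with 4 higher and 2 lower, against 11.3% and 9.98% of all genes. The median size of the difference was 0.25 over the 7 genes and 0.09 over all genes. Signed medians were 0.19 and 0.02.

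Among the stathmins, Stmn4, also known as RB3 and expressed in neurons, had the largest difference. Its main probe set had 7.91, 7.74 and 7.57 in control cells at 24 h, against 6.71, 6.47 and 6.94 at 4 h. Every 24 h value lay above every 4 h value. The difference was 1.03 (SE 0.13, 95% interval 0.74 to 1.32, adjusted p = 0.00387), or 2.05-fold, and it ranked 14 from the top among 22180 genes. Without control 4 h replicate 2, which held the lowest of the 3 values at 4 h, it was 0.91 (adjusted p = 0.00639). The mean of the sympathetic markers was also higher at 24 h, with 2 of the 13 called higher, against 2.17% of all genes. The part of these markers in the rise of Stmn4 was not tested.

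The second probe set of Stmn4 had 6.79, 7.13 and 6.82 at 24 h, against 6.69, 6.60 and 6.76 at 4 h. The groups did not overlap here either, but the gap was small, and the difference of 0.23 did not pass (adjusted p = 0.29 among all probe sets of 1 symbol). With the mean of both probe sets the Stmn4 difference was 0.63 (adjusted p = 0.00678). Whether the probe sets changed by different amounts was tested on their within-array difference, main minus second, over all 1341 such pairs of the 1082 genes with several probe sets. That difference was 0.83 ± 0.26 at 24 h and 0.03 ± 0.16 at 4 h (mean ± SD, n = 3 each), a change of 0.80 (SE 0.18, interval 0.39 to 1.22), which did not pass (adjusted p = 0.127, limma). It was 0.72 without control 4 h replicate 2 (adjusted p = 0.192). Of all pairs 0.895% were called. Leaving out 37 pairs with the same values on all arrays, a setting added once the values were known, gave an adjusted p of 0.0553. The parts of the Stmn4 transcript that each probe set covers are not given in the sources used here.

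Stmn2, also known as SCG10, and Stmn3, also known as SCLIP, are the other membrane-anchored stathmins. Stmn2 had 11.11, 11.08 and 11.19 at 24 h, against 10.87, 10.96 and 10.99 at 4 h. All values at 24 h were above those at 4 h, but the difference of 0.19 (interval 0.05 to 0.32) did not pass (adjusted p = 0.129). It was 0.20 without control 4 h replicate 2 (adjusted p = 0.111). Stmn3 had 11.73, 11.70 and 11.64 at 24 h, against 11.61, 11.30 and 11.54 at 4 h. Its groups did not overlap, and its difference of 0.21 (interval 0.03 to 0.40) did not pass either (adjusted p = 0.212). Control 4 h replicate 2 was the lowest Stmn3 value, and without it the difference was 0.12 (adjusted p = 0.32).

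Stmn1, the cytosolic stathmin found in most dividing cells, had 8.08, 7.95 and 8.08 at 24 h, against 8.08, 8.20 and 8.07 at 4 h. The groups overlapped, and the difference was -0.08 (interval -0.23 to 0.07, adjusted p = 0.593). It was -0.04 without control 4 h replicate 2. The Stmn1 probe set gave 7 different values on the 9 arrays, with 1 value shared by 3 of them, and the annotation also lists pseudogenes of Stmn1, whose contribution to the signal was not tested. The interval leaves out a rise or fall of the size seen for Stmn4.

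In the doublecortin family, Dcx had 5.65, 5.86 and 5.83 in control cells at 24 h, against 6.61, 7.11 and 6.61 at 4 h. All 24 h values were below all 4 h values, and control 4 h replicate 2 was the highest. The difference was -0.99 (SE 0.13, interval -1.29 to -0.70, adjusted p = 0.00459), which left 50.2% of the signal at 4 h, and it ranked 16 from the bottom among 22180 genes. Without that replicate it was -0.83 (adjusted p = 0.0021).

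Dclk1, a doublecortin-like kinase of neurons and of some epithelial cells, had 8.91, 8.66 and 8.77 at 24 h, against 8.40, 8.61 and 8.44 at 4 h. The groups did not overlap, and the difference of 0.29 (interval 0.09 to 0.49) did not pass (adjusted p = 0.108). It passed with array weights, where the difference was 0.35 (adjusted p = 0.0264). Without control 4 h replicate 2 it was 0.36 (adjusted p = 0.0572).

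Dclk2, the related kinase, had 8.06, 7.88 and 7.83 at 24 h, against 8.15, 8.16 and 8.23 at 4 h. The 24 h values were all lower, by 0.25 on average (interval -0.45 to -0.06), and the difference did not pass (adjusted p = 0.156). Without control 4 h replicate 2 it was -0.26 (adjusted p = 0.191). The differences of Dclk1 and Dclk2 thus had opposite signs, with neither called.

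Within-array differences set each called gene against the rest of its family. Their level depends on the probes, and only the change between groups is read. Stmn4 minus the mean of the other stathmins was -2.55 ± 0.17 at 24 h and -3.48 ± 0.21 at 4 h (mean ± SD, n = 3 each), a change of 0.93. Dcx minus the mean of Dclk1 and Dclk2 was -2.57 ± 0.23 at 24 h and -1.56 ± 0.25 at 4 h, a change of -1.01. For both the groups did not overlap, and an exact permutation test, two-sided, gave p = 0.1 (0.2 adjusted over 4 comparisons), which is the lower limit for 3 arrays against 3. With the mean of the Stmn4 probe sets its change was 0.53. Both comparisons were chosen with the differences of these genes known.

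**Figure D2:**
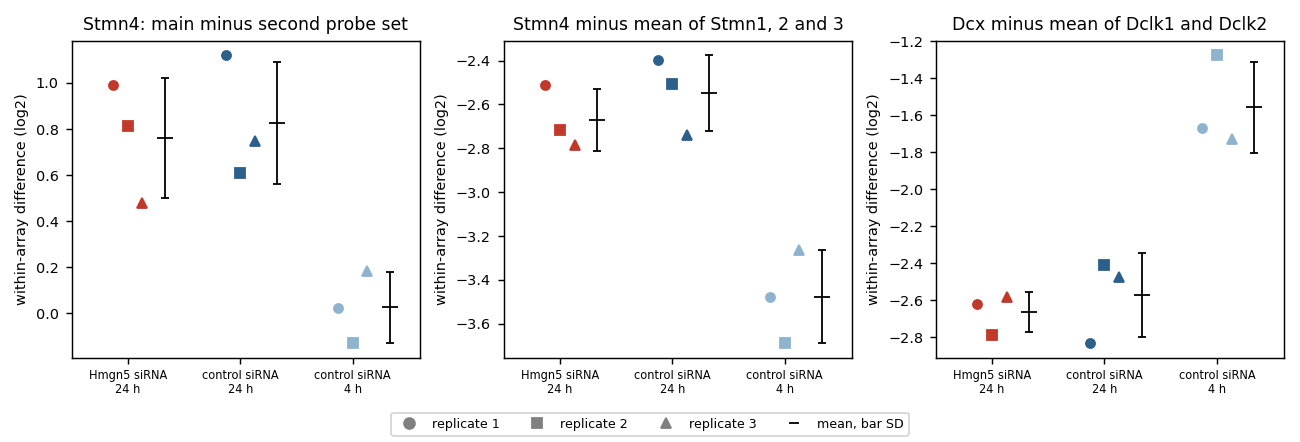
Within-array log2 differences on each of the 9 arrays by group, with mean and SD: Stmn4 main minus second probe set, Stmn4 minus the mean of the other stathmins, and Dcx minus the mean of Dclk1 and Dclk2. In all 3 panels the 4 h arrays lie apart from both 24 h groups, while the 24 h groups overlap.

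Knockdown of Hmgn5 was compared with the control siRNA at 24 h. None of the 7 genes was called (adjusted p from 0.881 to 0.999, limma), 1 of them was at an unadjusted p under 0.05, and 0.0135% of all genes were called while 5.25% were at an unadjusted p under 0.05. Of the differences 3 were above 0 and 4 below, where 49.2% of all genes were above 0. The median size was 0.11 over the members and 0.06 over all genes.

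Dclk1 had the largest difference among the members at knockdown. It had 8.56, 8.61 and 8.40 with Hmgn5 siRNA, against 8.91, 8.66 and 8.77 with control siRNA. The knockdown values were all lower, as for 5.62% of all genes, with a difference of -0.25 (SE 0.09, interval -0.45 to -0.05, adjusted p = 0.881). The knockdown values overlapped those of the 4 h control arrays, with a difference of 0.04 between these groups (adjusted p = 0.877).

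Dcx had 5.71, 5.59 and 5.55 with Hmgn5 siRNA, against 5.65, 5.86 and 5.83 with control siRNA at 24 h. The groups overlapped, and the difference was -0.16 (interval -0.46 to 0.13, adjusted p = 0.99). Stmn4 had 7.78, 7.63 and 7.52 on its main probe set at knockdown, against 7.91, 7.74 and 7.57 in controls, a difference of -0.09 (interval -0.38 to 0.20, adjusted p = 0.999). It was -0.0062 without control 24 h replicate 1 and -0.18 without control 24 h replicate 3. On the second Stmn4 probe set the groups also overlapped, at 6.79 to 7.04 with Hmgn5 siRNA and 6.79 to 7.13 with control siRNA. The main minus second difference changed by -0.06 (interval -0.48 to 0.35, adjusted p = 1, with 0% of all pairs called).

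Stmn1 had 8.09, 8.22 and 8.16 at knockdown, against 8.08, 7.95 and 8.08 in 24 h controls. All knockdown values were higher, as for 6.65% of all genes, and the difference of 0.12 (interval -0.03 to 0.27) did not pass (adjusted p = 0.979). For Stmn2 the values were 11.11 to 11.16 at knockdown and 11.08 to 11.19 in controls, with a difference of 0.0029 (interval -0.13 to 0.14) that turned to -0.017 with cyclic loess. For Stmn3 they were 11.60 to 11.72 at knockdown and 11.64 to 11.73 in controls, with a difference of -0.03 (interval -0.22 to 0.16). Dclk2 lay at 7.87 to 8.14 at knockdown and 7.83 to 8.06 in controls, with a difference of 0.11 (interval -0.09 to 0.31, adjusted p = 0.989). The intervals for Stmn1, Stmn2, Stmn3 and Dclk2 leave out differences of the size that Stmn4 and Dcx showed over time, and those for Stmn4, Dcx and Dclk1 leave out differences beyond -0.46.

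**Figure D3:**
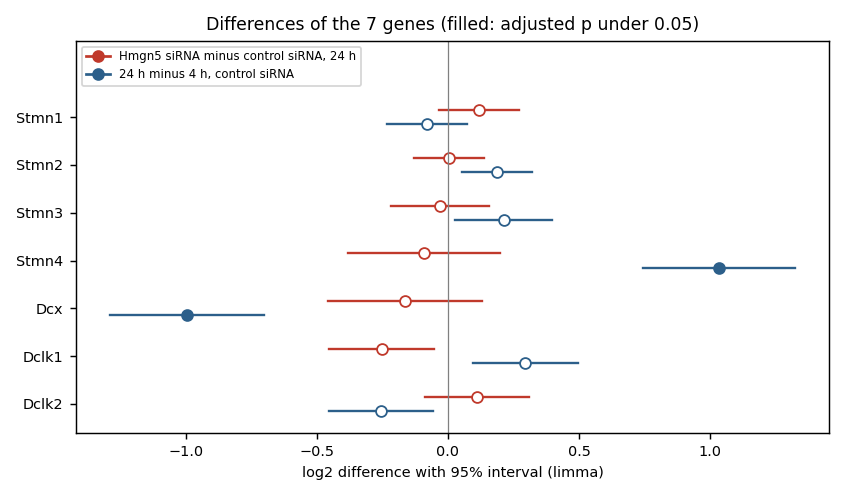
Log2 differences of the 7 genes with 95% intervals from limma, for knockdown against control siRNA at 24 h and for 24 h against 4 h in control cells, filled where the adjusted p was under 0.05. Only Stmn4 and Dcx over time are filled, and every knockdown interval except that of Dclk1 includes 0.

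Set against the 4 h controls, the knockdown arrays differ in siRNA and in time together. Stmn4 was higher by 0.94 (adjusted p = 0.00836) and Dcx lower, with a difference of -1.16 (adjusted p = 0.00397). These differences were 0.82 (adjusted p = 0.0137) for Stmn4 and -0.99 (adjusted p = 0.00189) for Dcx without control 4 h replicate 2. None of the other 5 members was called, with Stmn2 nearest (0.19, adjusted p = 0.152). Of all genes 1.52% were called higher and 1.04% lower (338 and 231, or 375 and 148 with median centring). These values share the 4 h arrays with the time comparison and the knockdown arrays with the siRNA comparison.

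The 3 groups can be ordered by each gene's mean. Stmn4 averaged 7.65 at knockdown, 7.74 in 24 h controls and 6.71 in 4 h controls, so the 24 h controls were highest, with values that overlapped those of the knockdown arrays, and the 4 h controls lay apart below both. Dcx averaged 5.62 at knockdown, 5.78 in 24 h controls and 6.78 in 4 h controls, so the 4 h controls lay apart above both 24 h groups, which overlapped, and the knockdown arrays were lowest. Dclk1 averaged 8.52 at knockdown, 8.78 in 24 h controls and 8.48 in 4 h controls. Here the 24 h controls lay above both other groups, which overlapped each other. Dclk2 averaged 8.04 at knockdown, 7.93 in 24 h controls and 8.18 in 4 h controls, with the 4 h controls highest and the other groups overlapping. Stmn2 averaged 11.13 in both 24 h groups, which overlapped, and 10.94 in 4 h controls, the lowest. Stmn3 averaged 11.66 at knockdown, 11.69 in 24 h controls and 11.48 in 4 h controls, and its knockdown values overlapped those of both control groups. Stmn1 averaged 8.16 at knockdown, 8.04 in 24 h controls and 8.12 in 4 h controls, so the knockdown arrays were highest and the 4 h controls overlapped both other groups.

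**Figure D4:**
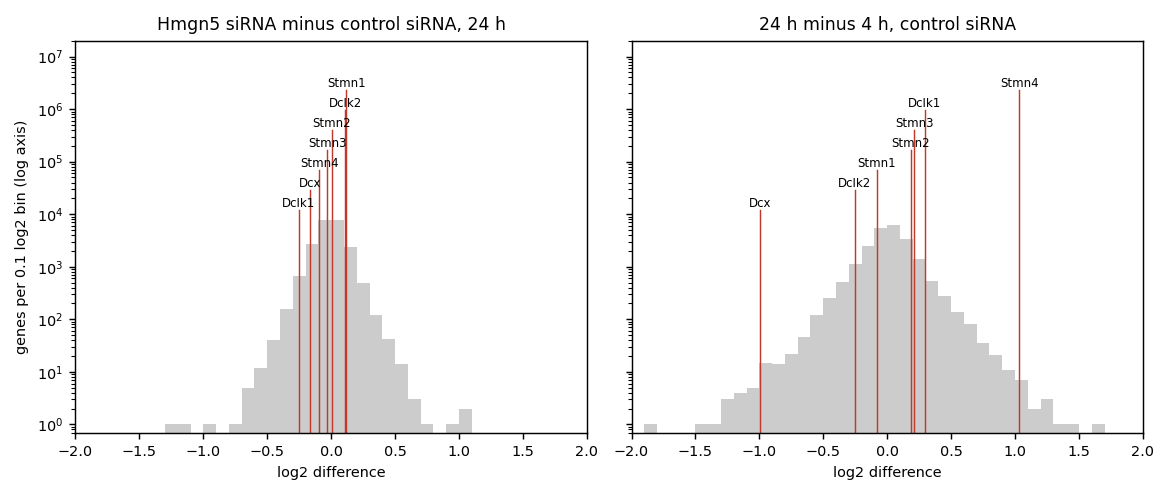
Number of genes per 0.1 log2 bin on a log axis for both comparisons, with the 7 members marked by red lines whose heights only separate the names. Over time Stmn4 (1.03) and Dcx (-0.99) lie in the outer tails of the 22180 genes, and at knockdown all 7 lie between -0.25 and 0.12.

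Kinases, phosphatases and partners known to act on stathmins or doublecortin formed a list of 33 genes, of which 30 were measured. Over time 1 rose and none fell, where 2.17% of all genes were called in each direction. Of the 30 differences 21 were above 0, as were 54.9% of those of all genes, and the median was 0.09, against 0.02 over all genes. The gene that rose was Mapk10, which encodes the neuronal Jun kinase JNK3, an enzyme of the kinase family that phosphorylates Stmn2 and doublecortin. It had 8.68 ± 0.13 at 24 h and 7.97 ± 0.13 at 4 h (mean ± SD, n = 3 each), a difference of 0.71 (adjusted p = 0.00418), or 0.78 without control 4 h replicate 2 (adjusted p = 0.00348). The calcium-dependent kinase gene Camk4 (0.50, adjusted p = 0.0646), the palmitoyltransferase gene Zdhhc3 (-0.21, 0.0979) and the kinase gene Map3k12 (0.32, 0.104) followed by p and did not pass. Camk4 passed with cyclic loess, with array weights, without the dimmest 33% of genes and without control 4 h replicate 1. With the mean of its probe sets its difference was 0.26 (adjusted p = 0.172).

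At knockdown none of these 30 genes was called, against 0.0135% of all genes. Of the differences 14 were above 0, as were 49.2% of those of all genes, and the median was -0.0048. Mapk10 had the smallest p, at 8.41 ± 0.07 in knockdown cells and 8.68 ± 0.13 in 24 h controls, and its difference of -0.26 did not pass (adjusted p = 0.855). Mapk8, which encodes JNK1, had a difference of 0.24 (adjusted p = 0.979).

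Tubulins and structural microtubule-associated proteins were measured for 32 of 33 genes listed. Over time 2 rose and 1 fell, against 2.17% of all genes in each direction. Of the 32 differences 20 were above 0, against 54.9% of all genes, and the median was 0.13, against 0.02 over all genes. Map2, a dendritic microtubule-associated protein, rose by 0.62 (adjusted p = 0.00279) and the neuronal tubulin gene Tubb2b by 0.64 (adjusted p = 0.0317). Map6d1, a relative of the microtubule-stabilizing protein MAP6, fell by 0.52 on the log2 scale (adjusted p = 0.00837). Without control 4 h replicate 2 the differences were 0.63 for Map2 (adjusted p = 0.0053), 0.45 for Tubb2b (0.0103) and -0.55 for Map6d1 (0.0116). The Tubb2b call was lost without any 1 of the arrays at 24 h (adjusted p up to 0.124), with the mean of its probe sets and with only the groups compared. Without control 4 h replicate 2 the list had 5 called genes. Calls over all genes also changed with the setting, from 280 to 1685 over the alternatives. The count of 5 is therefore not set against the 2.17% of the main fit. At knockdown none of the 32 was called, against 0.0135% of all genes, and the median was 0.01.

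Other genes with doublecortin domains, 7 in number and all measured, had no call in either comparison. Of all genes 2.17% were called in each direction over time and 0.0135% at knockdown. The list medians were -0.04 over time and -0.07 at knockdown, against 0.02 and -0.0019 over all genes. At knockdown 6 of 7 differences were below 0, where 49.2% of all genes were above 0. The retinal gene Rp1l1 (-0.19, adjusted p = 0.926) had the smallest p at knockdown. The fall of Dcx over time had no called counterpart among them, with differences from -0.14 to 0.09. Several were dim in control cells, with means at 24 h and 4 h of 3.87 and 3.78 for Rp1. The means were 3.35 and 3.42 for Dcdc2c and 4.05 and 3.99 for Dcdc5, against 5.78 and 6.78 for Dcx. Rp1, Dcdc2c and Dcdc5 were among the dimmest 33% of genes, while Rp1l1 (5.48 and 5.39) was not. Whether a fall as large as that of Dcx could show at such low levels was not tested.

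**Figure D5:**
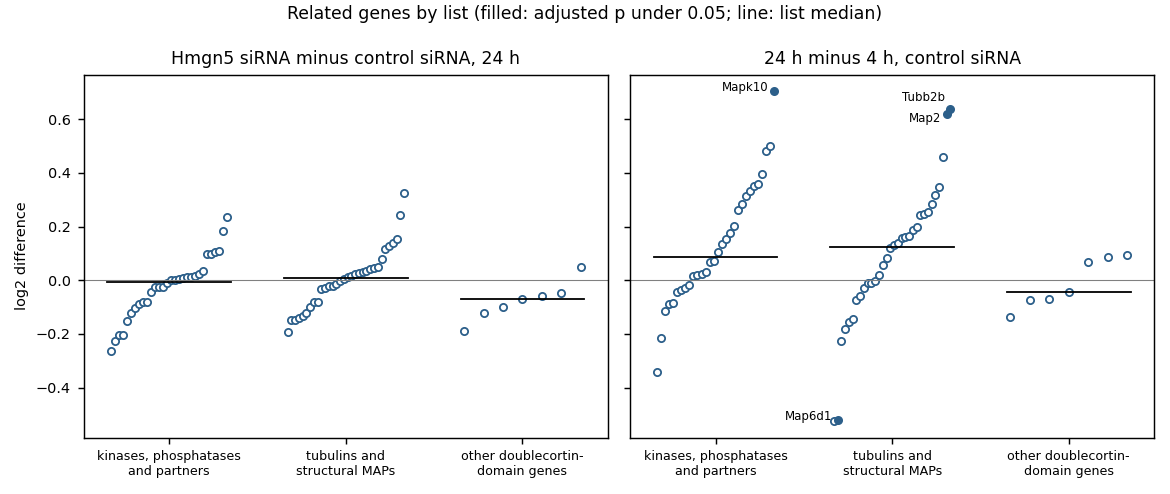
Log2 differences of the measured genes of the 3 lists, 30 kinases, phosphatases and partners, 32 tubulins and microtubule-associated proteins (MAPs) and 7 other doublecortin-domain genes, in both comparisons, with the list median as a line and called genes filled. Over time Mapk10, Map2 and Tubb2b are filled above 0 and Map6d1 below 0, and no gene is filled at knockdown.

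Likeness of pattern was measured as Pearson's r over the 9 arrays, among 5585 genes with a mean and an SD at or above the median gene. The 9 points share the 3 groups and the array that stood apart, so r is a description. Nearest to Stmn4 were Tdrkh (0.99), Rap1gap2 (0.99), which encodes an inhibitor of the GTPase Rap1, and the integrin gene Itga3 (0.99). Farthest from it were the nucleoporin gene Ranbp2, the coat protein gene Sec24a and Max, each at -0.98. Nearest to Dcx were the coat protein gene Sec23a (0.99), the nucleoporin gene Pom121 (0.99) and Dera (0.98), and farthest were Vax2, Oxct1 and Disp2, each at -0.99.

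The other members had neighbours of their own. Those of Stmn3 were Islr2 (1.00), Ift140 (0.99) and Mapk8ip2 (0.98), and those of Stmn2 were Hacl1 (0.98), Armh4 (0.97) and Oasl2 (0.96). Dclk1 was nearest to the orphan nuclear receptor gene Nr4a3 (0.95), Marchf4 (0.94) and Arhgap26 (0.92), and Dclk2 to Rbak (0.97), Pus7 (0.94) and Cdc37l1 (0.94). Stmn1 was nearest to Ptafr (0.92), Abhd10 (0.91) and Cenpq (0.90). Between members r was -0.95 for Stmn4 with Dcx, 0.85 for Stmn4 with Stmn3, 0.84 for Stmn4 with Stmn2 and -0.28 for Dclk1 with Dclk2.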

How the data were processed

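The 9 arrays were Affymetrix whole-transcript arrays, 1 per sample. The authors deposited log2 expression per probe set. The submitters' processing notes name oligo and RMA, with no version. RMA corrects background, quantile-normalizes and summarizes probes, which hides any shift common to most genes. Values ran from 2.13 to 13.9 with array medians of 5.16 to 5.30. The number of arrays limits the precision.

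From the deposited values, limma 3.58.1 in R 4.3.3 fitted group means over all 9 arrays (lmFit, eBayes, 6 residual and 3.55 prior degrees of freedom). P-values were Benjamini-Hochberg adjusted over 22180 genes, each represented by its probe set with the highest mean, and intervals are at 95%. Of the probe sets, 23521 had 1 symbol, 1814 several and 16010 none, and those with several or none were left out. Promoter windows and names are RefSeq's (GRCm38.p6), and the array's build is not given in the sources used here.

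Groups came from the sample titles. The members and lists, the tests and the rule for named genes were chosen with earlier results of these data known. That rule names every member, up to 4 genes with the smallest p per list and comparison with any called gene, and the 3 genes nearest in pattern to each member. Alternatives were the replicate number as a block, only the groups compared, a trend and robust prior, array weights, no dim genes, cyclic loess, median centring, other uses of probe sets and leaving out each array. The steps were tested on simulated data.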

Additional observations from a re-analysis of the deposited data

How the results depend on the processing

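The call counts of the 7 members (0 at knockdown, 2 over time, 2 for knockdown against 4 h controls) were the same under all 18 alternatives, except 3 over time with array weights, where Dclk1 was added. Over time, Stmn4 ranged from 0.63 to 1.15 (adjusted p at most 0.0283) and Dcx from -1.08 to -0.83 (at most 0.0356). The sign of Stmn2 at knockdown turned with cyclic loess (-0.0168) and with 1 array left out (-0.0191 to 0.0339), and that of Stmn3 with 1 array left out (-0.0571 to 0.000964). Dclk1 against 4 h controls turned in the same way (-0.00115 to 0.104), as did the change of the Stmn4 probe set difference at knockdown (-0.179 to 0.0843). None of these was called. With 1 array left out the knockdown difference of Stmn4 ran from -0.177 to -0.00624, that of Stmn1 from 0.073 to 0.151 and that of Dclk2 from 0.0573 to 0.193. Over time the change of the Stmn4 probe set difference, main minus second, ranged from 0.65 to 0.91 (adjusted p 0.0553 to 0.301). Stmn4 minus the other stathmins moved over time to 0.53 with the mean of its probe sets and to 0.82 to 1.03 with 1 array left out. Dcx minus the kinases ranged from -1.10 to -0.87. Calls over all genes were 280 (only the groups compared) to 1685 (array weights) over time, 113 to 1226 for knockdown against 4 h controls and 0 to 7 at knockdown. For pairs of probe sets over time they were 0 to 17. The list of kinases and partners had 2 called genes with array weights, with cyclic loess, without the dimmest 33% of genes or without control 4 h replicate 1, and the tubulin list 7 with array weights and 5 without control 4 h replicate 2. With the replicate number as a block, adjusted p over time was 0.00928 for Stmn4 and 0.00914 for Dcx. That block changed no member's call. Same-numbered arrays correlated in their deviations from group means at 0.09 to 0.29 between the 24 h groups and 0.04 to 0.06 between the control groups. Arrays of different number were not compared in this way, so these values do not decide whether the arrays were paired. The labels give no block, and the numbers were not taken as pairs.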
